A study of Mus musculus with 6 samples.

Results

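Il6, Il11 and Osm encode interleukin-6, interleukin-11 and oncostatin M, cytokines of the IL-6 family. They were taken by gene symbol from a table of 2195 genes, in which all 3 have values. The table holds RNA-Seq of colon tissue in 3 libraries of Gab1IEC-KO mice (both Gab1 alleles floxed and deleted by VillinCre, a Cre recombinase driven by the Villin promoter in intestinal epithelial cells) and 3 of Gab1fl/fl littermates, whose floxed alleles stay intact because they carry no Cre. The sample labels call the littermates WT. All mice were 8 to 10 weeks old and drank 3% dextran sodium sulfate (DSS), which injures the colonic epithelium, for 7 days, and no colon without DSS was analysed here. Gab1 was deleted in epithelium alone, whereas the libraries hold the RNA of every cell type of the colon. In such tissue a larger number of producing cells and more RNA per cell cannot be told apart.

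IL-6, IL-11 and oncostatin M signal through a shared receptor chain, gp130, encoded by Il6st, which pairs with a second chain for each ligand and activates JAK kinases and the transcription factor STAT3. IL-6 binds the chain encoded by Il6ra and drives acute phase and lymphocyte responses. IL-11 is made mainly by stromal cells and acts on epithelium and fibroblasts. Oncostatin M is made mainly by myeloid and T cells and acts on stromal cells through the chain encoded by Osmr. In the colon all of them are known for roles in colitis and in epithelial repair.

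The deposited values are normalized counts, which are read counts divided by one size factor per library. A single read equals 0.912 to 1.06 of these units, depending on the library. Between 1957437 and 2787670 reads per library fell in the listed genes, while the full depth is unknown. A gene is listed only if its unadjusted p in the deposited comparison was under 0.05, so the members have values because they differed between these same libraries, and no test of that difference is independent of the listing. Gab1 was not listed, so its deletion could not be checked. Gab1fl/fl replicate 1 was the highest Gab1fl/fl library for 1244 of the 1536 genes that were higher in Gab1IEC-KO colons, and Gab1IEC-KO replicate 3 was the highest Gab1IEC-KO library for 951 of them. Of 10 epithelial markers none was listed, so these markers could not be used to check the epithelium.

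The genes lie on different chromosomes. Il6 (ENSMUSG00000025746) spans chromosome 5 from 30013114 to 30019981 on the forward strand, Il11 (ENSMUSG00000004371) chromosome 7 from 4772373 to 4782857 on the reverse strand, and Osm (ENSMUSG00000058755) chromosome 11 from 4236420 to 4241026 on the forward strand, all on GRCm38. None overlaps another gene of the GENCODE M21 annotation. Lif, which encodes leukemia inhibitory factor of the same family, lies 16531 bases from Osm and was not among the listed genes.

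The promoters of Il6 and Il11 are shown because both genes were higher together in Gab1IEC-KO colons and are known targets of inflammatory transcription factors. The sequences are the 250 bases before the start site in RefSeq (GRCm38.p6), 5′ to 3′ on the strand of the gene, at chr5:30012864-30013113 on the forward strand for Il6 and chr7:4778142-4778391 on the reverse strand for Il11. The table of promoters matched 2 of the 3 members, and Osm was not matched. Capitals mark matches to 6 motifs, searched on both strands except the last: AP-1 (TGANTCA), the NF-κB consensus, a CRE half-site (TGACGT), C/EBP (TTGNGCAA), STAT (TTCNNNGAA) and the TATA box (TATANA, on the strand of the gene only).
Il6: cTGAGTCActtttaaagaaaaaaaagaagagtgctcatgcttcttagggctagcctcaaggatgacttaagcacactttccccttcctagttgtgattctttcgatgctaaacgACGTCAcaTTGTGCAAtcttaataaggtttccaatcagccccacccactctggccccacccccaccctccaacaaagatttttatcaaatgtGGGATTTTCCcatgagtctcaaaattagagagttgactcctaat
Il11: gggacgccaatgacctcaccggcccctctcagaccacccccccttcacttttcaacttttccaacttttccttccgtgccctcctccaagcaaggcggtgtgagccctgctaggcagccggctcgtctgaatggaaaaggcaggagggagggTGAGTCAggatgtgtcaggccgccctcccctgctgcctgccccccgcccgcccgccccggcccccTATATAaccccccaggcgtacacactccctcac
In the Il6 window the matches, from the 5′ end, were AP-1, CRE, C/EBP and NF-κB, the last from 44 to 35 bases before the start. In the Il11 window they were AP-1, from 98 to 92 bases before the start, and the TATA box. The AP-1 motif was the only one present in both windows, and 6.75% of the 32851 promoter windows in the table held it. The corresponding shares were 3.90% for NF-κB, 6.47% for the CRE half-site, 2.61% for C/EBP, 7.02% for STAT and 16.4% for the TATA box. A second start of Il11, at 4782857, had no match to any of the 6 motifs. These matches describe letters in the sequence, and no binding was measured.

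Per exon length, Il11 was the most abundant of the members in Gab1IEC-KO colons and had the largest difference between the groups. It had 549.6, 321.8 and 353.9 normalized counts in Gab1IEC-KO replicates 1 to 3, against 57.2, 39.7 and 8.62 in Gab1fl/fl replicates 1 to 3. The groups did not overlap, and the lowest Gab1IEC-KO library lay 5.63-fold above the highest Gab1fl/fl library. The means were 408 ± 123 (SD, n = 3) in Gab1IEC-KO and 35.2 ± 24.6 (SD, n = 3) in Gab1fl/fl colons. On the log2 scale of the normalized count plus 1, the fold change was 3.81 with a standard error of 0.66, the 8th largest among the 2195 genes (adjusted p = 0.384 from limma). Gab1fl/fl replicate 3, with 9 reads of Il11, was far below the other Gab1fl/fl libraries, and without it the log2 fold change was 3.03 with a standard error of 0.41.

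Il6 was the least abundant of them per exon length in both groups. It had 60.5, 55.2 and 24.6 normalized counts in Gab1IEC-KO replicates 1 to 3, against 11.0, 4.07 and 4.79 in Gab1fl/fl replicates 1 to 3. All Gab1IEC-KO libraries again lay above all Gab1fl/fl libraries, by at least 2.23-fold. The Gab1fl/fl values rest on 11, 4 and 5 reads, whose 95% exact Poisson intervals, which cover counting error only, run from 5.51 to 19.7, from 1.11 to 10.4 and from 1.55 to 11.2 normalized counts. These intervals overlap, so the order of Il6 among Gab1fl/fl colons is not resolved at this depth. The means were 46.8 ± 19.3 (SD, n = 3) in Gab1IEC-KO and 6.63 ± 3.83 (SD, n = 3) in Gab1fl/fl colons, and the log2 fold change was 2.66 with a standard error of 0.54 (adjusted p = 0.384 from limma).

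Osm had the smallest difference of the members. It had 58.4, 63.3 and 116.7 normalized counts in Gab1IEC-KO replicates 1 to 3, against 31.1, 27.5 and 13.4 in Gab1fl/fl replicates 1 to 3. The groups did not overlap, and the lowest Gab1IEC-KO library lay 1.88-fold above the highest Gab1fl/fl library. The means were 79.5 ± 32.4 (SD, n = 3) in Gab1IEC-KO and 24.0 ± 9.35 (SD, n = 3) in Gab1fl/fl colons. The log2 fold change was 1.70 with a standard error of 0.48 (adjusted p = 0.462 from limma), which placed Osm 223rd of the 2195 genes.

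**Figure D1:**
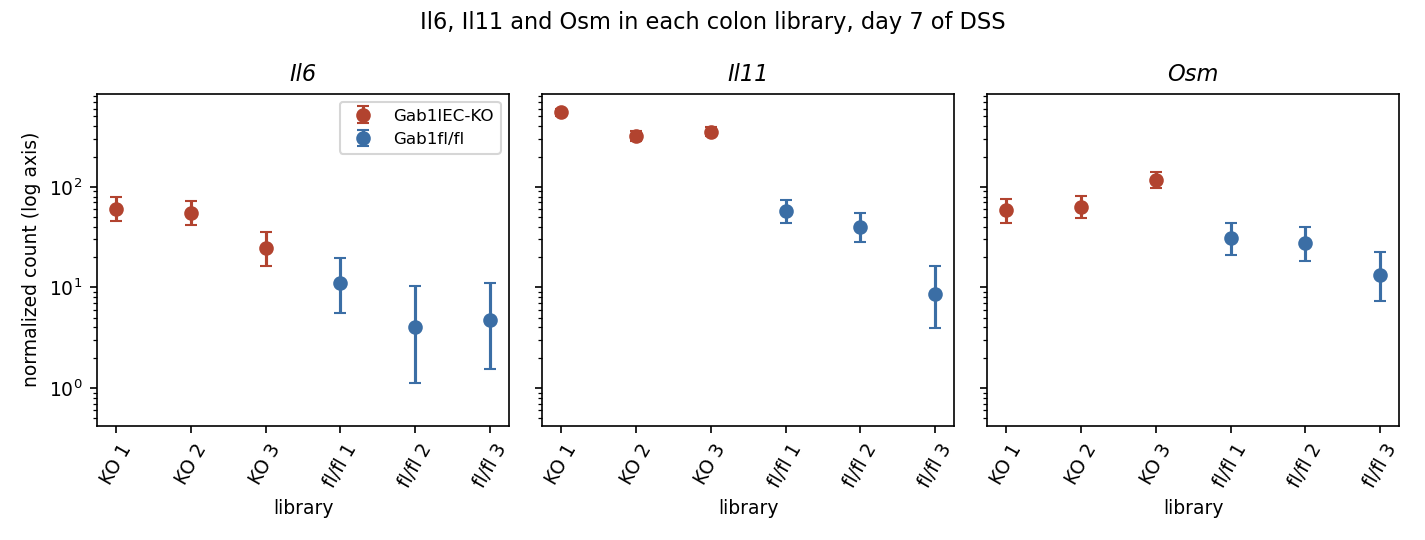
Normalized counts (log axis) of Il6, Il11 and Osm in each library, with 3 Gab1IEC-KO libraries on the left and 3 Gab1fl/fl libraries on the right of each panel. Bars are 95% Poisson intervals of the reads. All Gab1IEC-KO libraries lie above all Gab1fl/fl libraries, from 321.8 to 549.6 against 8.62 to 57.2 for Il11, and Gab1IEC-KO replicate 3 is the lowest of its group for Il6 and the highest for Osm.

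All 3 members were above every Gab1fl/fl library in every Gab1IEC-KO library, as were 43% of all listed genes. At an adjusted p under 0.05, limma and edgeR each called 0% of the listed genes, and so none of the members, whereas at an unadjusted p under 0.05 limma called 1207 genes (55%), edgeR 1204 (54.9%) and DESeq2 1408 (64.1%), all members included. With limma at that unadjusted p all 3 members were higher, as were 40% of the listed genes. On the recovered reads DESeq2 called 5.33% of the listed genes at an adjusted p under 0.05, among them Il11 (adjusted p = 1.28e-05 from DESeq2) and Il6 (adjusted p = 0.00976 from DESeq2) but not Osm (adjusted p = 0.0952 from DESeq2). With 3 libraries in each group, the smallest p of an exact permutation test (two-sided) is 0.1.

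Replicate 3 of the Gab1IEC-KO colons set Il6 and Osm apart. It had the lowest Il6 of its group, with a Poisson interval of 16.2 to 35.8 normalized counts, against 45.8 to 78.4 in replicate 1 and 41.4 to 72.0 in replicate 2. The same library had the highest Osm, with an interval of 97.4 to 138.8, against 44.0 to 76.0 in replicate 1 and 48.6 to 81.2 in replicate 2. Neither interval overlaps those of the other Gab1IEC-KO libraries, so both gaps are larger than counting error. For Il11 the outlying Gab1IEC-KO library was replicate 1, whose interval of 503 to 599.0 lay above the 287 to 359 of replicate 2 and the 320 to 391 of replicate 3, while the intervals of replicates 2 and 3 overlapped. In Gab1fl/fl colons replicate 1 had the highest value for each member.
In Gab1IEC-KO colons the coefficient of variation was 30.2% for Il11, 41.4% for Il6 and 40.7% for Osm, where the reads alone would give 4.96%, 14.7% and 11.1%. In Gab1fl/fl colons it was 70.0% for Il11, 57.8% for Il6 and 39.0% for Osm, where the reads alone would give 16.9%, 38.7% and 20.4%.

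Levels of different genes were compared per kilobase of annotated exon length, which is 2012 bases for Il11, 2428 for Il6 and 2272 for Osm. The mean level per kilobase in Gab1IEC-KO colons was 203 ± 61.3 (SD, n = 3) normalized counts for Il11, 34.98 ± 14.2 (SD, n = 3) for Osm and 19.3 ± 7.97 (SD, n = 3) for Il6. In Gab1fl/fl colons it was 17.5 ± 12.2 (SD, n = 3) for Il11, 10.6 ± 4.12 (SD, n = 3) for Osm and 2.73 ± 1.58 (SD, n = 3) for Il6. In Gab1IEC-KO colons the range of Il11 lay above those of Osm and Il6, whose ranges of 25.7 to 51.4 and 10.1 to 24.9 did not overlap but nearly met. In Gab1fl/fl colons Il11 and Osm ranged from 4.28 to 28.4 and from 5.90 to 13.7 and were not separated by the spread between libraries.
Il11 made up 84.4%, 76.0% and 74.1% of the level per kilobase summed over the 3 genes in Gab1IEC-KO replicates 1 to 3, against 60.9%, 58.9% and 35.2% in Gab1fl/fl replicates 1 to 3. In Gab1fl/fl replicate 3 Osm held the largest share, 48.5%.

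Ratios between members within a library show whether they differed unequally. The ratios are printed per kilobase, and the tests compared mean log2 ratios after 1 was added to each normalized count, which pulls in the ratios with Il6 most, given its few reads. The ratio of Il11 to Osm, per kilobase, was 10.6, 5.74 and 3.42 in Gab1IEC-KO replicates 1 to 3, against 2.08, 1.63 and 0.726 in Gab1fl/fl replicates 1 to 3. The groups did not overlap, and the difference in mean log2 ratio was 2.11 with a standard error of 0.64, or 2.13 with 0.1 added in place of 1 (exact two-sided permutation p = 0.1, the smallest that 3 against 3 can give, 0.3 after adjustment over 3 ratios). The ratio of Il11 to Il6 was 11.0, 7.04 and 17.3 in Gab1IEC-KO colons, against 6.25, 11.8 and 2.17 in Gab1fl/fl colons, and the groups overlapped (difference 1.16, standard error 0.76, exact permutation p = 0.2, adjusted p = 0.3). With 0.1 added it was 1.04 (exact permutation p = 0.3). The ratio of Il6 to Osm was 0.970, 0.815 and 0.197 in Gab1IEC-KO colons, against 0.332, 0.139 and 0.334 in Gab1fl/fl colons, and also overlapped (difference 0.96, standard error 0.81, exact permutation p = 0.3, adjusted p = 0.3, or 1.10 with 0.1 added). Gab1IEC-KO replicate 3, at 0.197, lay below Gab1fl/fl replicates 1 and 3.

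**Figure D2:**
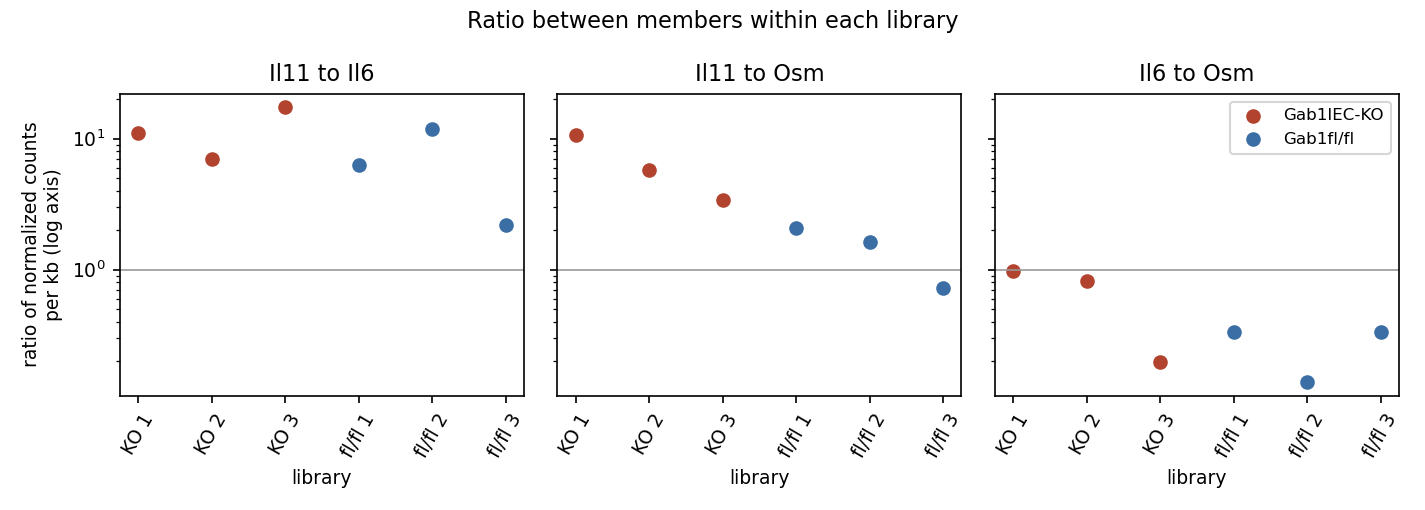
Ratio of normalized counts per kilobase (log axis) between pairs of members within each library, with Gab1IEC-KO libraries on the left and Gab1fl/fl libraries on the right of each panel. The grey line marks equal levels. The groups are apart for Il11 to Osm, where Gab1IEC-KO libraries run from 3.42 to 10.6 and Gab1fl/fl libraries from 0.726 to 2.08, and overlap for the other pairs.

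Of 11 ligand genes of the family, only Il6, Il11 and Osm were listed. The others, Lif, Ctf1, Ctf2, Clcf1, Cntf, Il27, Ebi3 and Il31, were not analysed here. Of 8 receptor genes, 4 were listed, none at an adjusted p under 0.05 by limma. At an unadjusted p under 0.05, 3 of the 4 were higher, beside 40% of all listed genes. Their log2 fold changes ran from 0.62 to 0.82, with a median of 0.74, beside a median of 0.79 over all listed genes.
Il6st, the shared chain gp130, had 4563, 3998 and 5854 normalized counts in Gab1IEC-KO replicates 1 to 3, against 3997, 2491 and 2663 in Gab1fl/fl replicates 1 to 3 (log2 fold change 0.67, standard error 0.25). The groups nearly met, at 3998 in Gab1IEC-KO replicate 2 against 3997 in Gab1fl/fl replicate 1. Osmr, the oncostatin M chain, had 1234, 1183 and 1572 in Gab1IEC-KO against 1028, 634 and 662 in Gab1fl/fl colons (log2 fold change 0.80, standard error 0.27). Lifr, the chain of leukemia inhibitory factor, had 609, 600.6 and 1128 in Gab1IEC-KO against 509, 473 and 309 in Gab1fl/fl colons (log2 fold change 0.82, standard error 0.34). Il6ra, which binds IL-6, had 447, 495 and 809 in Gab1IEC-KO against 408, 304 and 394 in Gab1fl/fl colons, and did not pass the unadjusted threshold (log2 fold change 0.62, standard error 0.31). The highest receptor values were all in Gab1IEC-KO replicate 3. That library was the highest of its group for 61.9% of the listed genes that were higher in Gab1IEC-KO colons. Il11ra1, the receptor chain of IL-11, was not listed.

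None of 12 genes of JAK-STAT signalling and feedback was listed, Stat3 and Socs3 included. Of 19 known STAT3 target genes, 8 were listed, 7 higher and 1 lower in Gab1IEC-KO colons, none at an adjusted p under 0.05 by limma. At an unadjusted p under 0.05, 5 of the 8 were higher, where 40% of all listed genes were, and the median log2 fold change was 0.82, beside 0.79 over all listed genes. Timp1, an inhibitor of matrix proteases, had 290, 255 and 279 normalized counts in Gab1IEC-KO replicates 1 to 3, against 199.7, 61.1 and 50.8 in Gab1fl/fl replicates 1 to 3 (log2 fold change 1.67, standard error 0.52). Reg3b and Reg3g, lectins that intestinal epithelium secretes against bacteria, had log2 fold changes of 1.30 ± 0.46 and 0.88 ± 0.45 (± standard error), and Reg3g overlapped between the groups. Reg3b was highest in Gab1IEC-KO replicate 1, at 36474, and lowest of its group in replicate 3, at 13144, as Il6 was. That library was the lowest of its group for 11.1% of the genes higher in Gab1IEC-KO colons. The groups of Reg3b nearly met, with 12659 in Gab1fl/fl replicate 2, and 0 of the 8 listed targets had the order of Il6 over all 6 libraries. Cebpb, a transcription factor of acute phase responses, had a log2 fold change of 1.20 (standard error 0.28). Birc5, which encodes survivin and is expressed in dividing cells, was the listed target below 0 (log2 fold change -1.31, standard error 0.59), with overlapping groups and no pass of the unadjusted threshold.
Of 17 acute phase genes, 6 were listed, none at an adjusted p under 0.05 by limma. All 6 were higher at an unadjusted p under 0.05, where 40% of all listed genes were, and the median log2 fold change was 2.38, beside 0.79 over all listed genes. Saa3, a serum amyloid A gene, had a log2 fold change of 4.21 (standard error 0.71), Hp, which encodes haptoglobin, 3.32 (standard error 0.93) and Lcn2, a siderophore-binding protein, 2.57 (standard error 0.46). Saa3 had 8069, 6420 and 18711 normalized counts in Gab1IEC-KO replicates 1 to 3, against 1672, 352 and 259 in Gab1fl/fl replicates 1 to 3. Gab1IEC-KO replicate 3 was the highest library for each of the 6 genes, and the highest of its group for 61.9% of genes higher in Gab1IEC-KO colons.

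**Figure D3:**
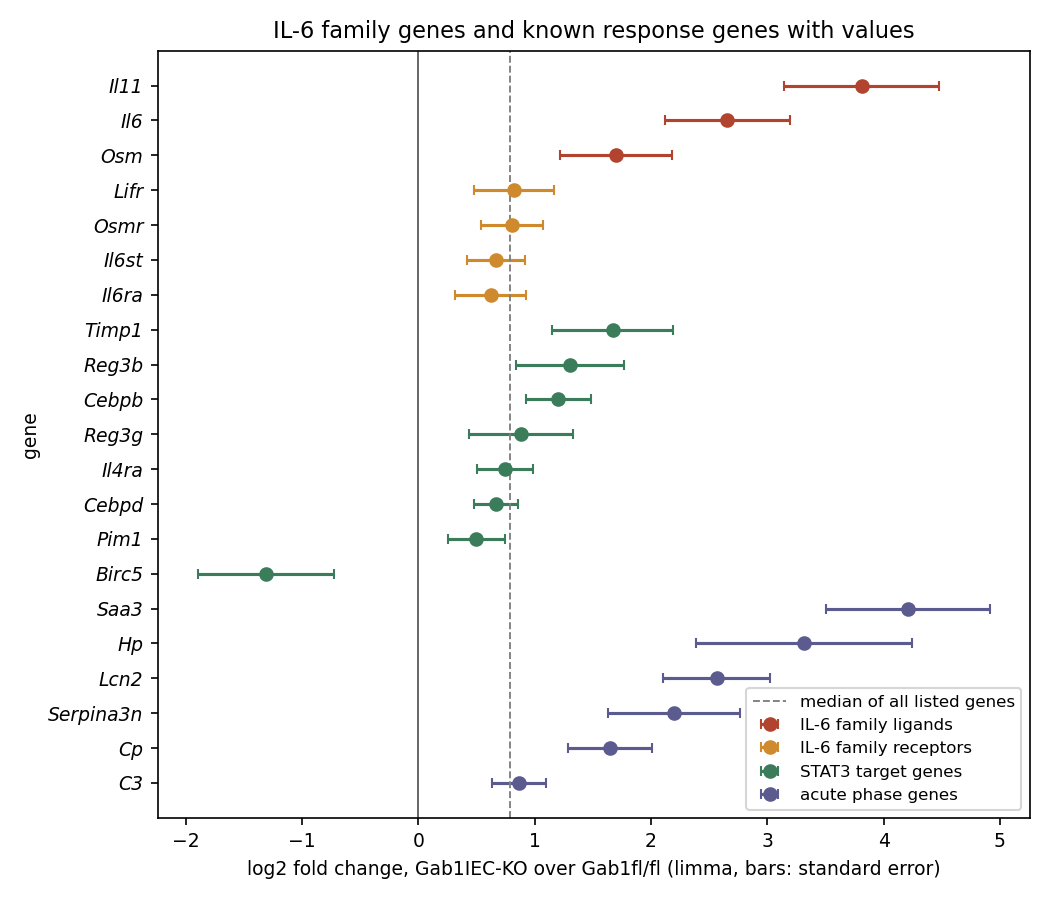
Log2 fold change of Gab1IEC-KO over Gab1fl/fl colons (limma, on the normalized count plus 1) for the listed IL-6 family ligands, receptors, STAT3 targets and acute phase genes. Bars are standard errors, and the dashed line is the median of 0.79 over all 2195 listed genes. The ligands run from 1.70 to 3.81, the receptors from 0.62 to 0.82.

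Among cytokines known to induce IL-6 family genes, 4 of 10 were listed. All of these had a log2 fold change above 0, as did 70% of all listed genes, and 2 passed an unadjusted p under 0.05, where 40% of all listed genes passed it and were higher. Il1b had 1056, 1262 and 1004 normalized counts in Gab1IEC-KO replicates 1 to 3, against 391, 312 and 183 in Gab1fl/fl replicates 1 to 3 (log2 fold change 1.96, standard error 0.32), and Il1a had a log2 fold change of 2.38 (standard error 0.71). Tgfb2 and Tgfb1 had log2 fold changes of 0.69 and 0.40 and did not pass the unadjusted threshold. Tnf, Il17a and Il22 were not listed.
Of 8 stromal genes known to respond to oncostatin M, 4 were listed. All 4 were higher at an unadjusted p under 0.05, where 40% of all listed genes were, and the median log2 fold change was 1.01, beside 0.79 over all listed genes. Ccl2, which draws monocytes, had 463, 558 and 606 normalized counts in Gab1IEC-KO replicates 1 to 3, against 134, 55.0 and 40.2 in Gab1fl/fl replicates 1 to 3. The adhesion molecules Vcam1 and Icam1 had log2 fold changes of 0.86 and 0.73, and Pdpn, which encodes podoplanin, overlapped between the groups. Of 13 genes of inflammation-associated fibroblasts, known mostly from human colitis, 8 were listed, and 6 were higher at an unadjusted p under 0.05, beside the same 40%, with a median log2 fold change of 1.61 against the 0.79 of all listed genes. Among them were the stromelysin Mmp10 (log2 fold change 3.33, standard error 0.80), the prostaglandin synthase Ptgs2 (2.46, standard error 0.52), Inhba, an activin subunit (2.22, standard error 0.42), and Grem1, a BMP antagonist (2.06, standard error 0.48). No gene of these lists passed an adjusted p under 0.05 by limma.

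No listed marker of another cell type passed an adjusted p under 0.05 by limma. At an unadjusted p under 0.05, where 40% of all listed genes were higher, 7 of 8 listed fibroblast markers, 7 of 8 neutrophil markers and 6 of 8 monocyte and macrophage markers were higher. All 8 fibroblast markers looked for were listed, with summed levels of 45357 to 80802 normalized counts in Gab1IEC-KO and 21915 to 32874 in Gab1fl/fl colons. The collagen gene Col3a1 was the largest term of this sum in every library. Pdgfra overlapped between the groups, with 2325 in Gab1IEC-KO replicate 2 against 2424 in Gab1fl/fl replicate 1. Of 13 neutrophil markers 8 were listed, with sums of 1704 to 4708 in Gab1IEC-KO and 525 to 1384 in Gab1fl/fl colons, and Ngp alone was at 0 in a library, Gab1fl/fl replicate 3. The 8 listed of 14 markers of monocytes and macrophages had sums of 11688 to 17461 in Gab1IEC-KO and 7733 to 9247 in Gab1fl/fl colons. None of 6 T cell markers was listed, and neither was any of 6 mast cell and eosinophil or 4 smooth muscle markers. Of 5 endothelial markers 4 were listed, with sums of 4399 to 7957 in Gab1IEC-KO and 2749 to 4632 in Gab1fl/fl colons. Of these Eng alone passed the unadjusted threshold, and Vwf, Cdh5 and Pecam1 overlapped between the groups. Of 5 B cell markers 1 was listed, Ms4a1, which was lower at an unadjusted p under 0.05 (log2 fold change -1.52).
The members were also expressed per 1000 normalized counts of these marker sums, a choice made after the values were seen. Since the sums hold only markers listed for a difference, the ratios are given without a test. In each Gab1IEC-KO library S100a8 and S100a9 were the largest terms of the neutrophil sum. Of the listed neutrophil markers, S100a8 and Ngp overlapped between the groups. Per 1000 fibroblast marker counts, Il11 was 11.0, 7.09 and 4.38 in Gab1IEC-KO replicates 1 to 3, against 1.74, 1.81 and 0.334 in Gab1fl/fl replicates 1 to 3. The groups stayed apart with Gab1IEC-KO higher, as for 4.65% of listed genes on this scale. Genes apart and lower were not counted in such shares. Il6 was 1.21, 1.22 and 0.305 in Gab1IEC-KO against 0.336, 0.186 and 0.186 in Gab1fl/fl colons, so that Gab1IEC-KO replicate 3 lay among the controls. Osm overlapped on this scale as well, with 1.16 to 1.44 in Gab1IEC-KO and 0.520 to 1.25 in Gab1fl/fl colons.
Per 1000 neutrophil marker counts, Osm was 34.2, 20.0 and 24.8 in Gab1IEC-KO replicates 1 to 3, against 22.5, 52.3 and 22.5 in Gab1fl/fl replicates 1 to 3. The groups overlapped, and the mean log2 ratio was lower in Gab1IEC-KO colons by a difference of -0.21. On this scale Il6 and Il11 overlapped between the groups too, Il11 by the margin of 75.2 in Gab1IEC-KO replicate 3 against 75.6 in Gab1fl/fl replicate 2, and 1.18% of listed genes stayed apart and higher. Per 1000 monocyte and macrophage marker counts all 3 members stayed apart and higher, as did 7.2% of listed genes. Osm was 4.99, 5.07 and 6.69 in Gab1IEC-KO against 3.89, 2.97 and 1.73 in Gab1fl/fl colons. Il6 was separated there by 1.41 in Gab1IEC-KO replicate 3 against 1.38 in Gab1fl/fl replicate 1. C1qa was the largest term of the monocyte and macrophage sum in every library. The log2 fold changes of its 8 listed markers ran from 0.37 for Csf1r to 1.71 for Itgam. Whether the groups stay apart with another choice of these markers was not tested. The part of cell numbers in the differences was not tested.

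**Figure D4:**
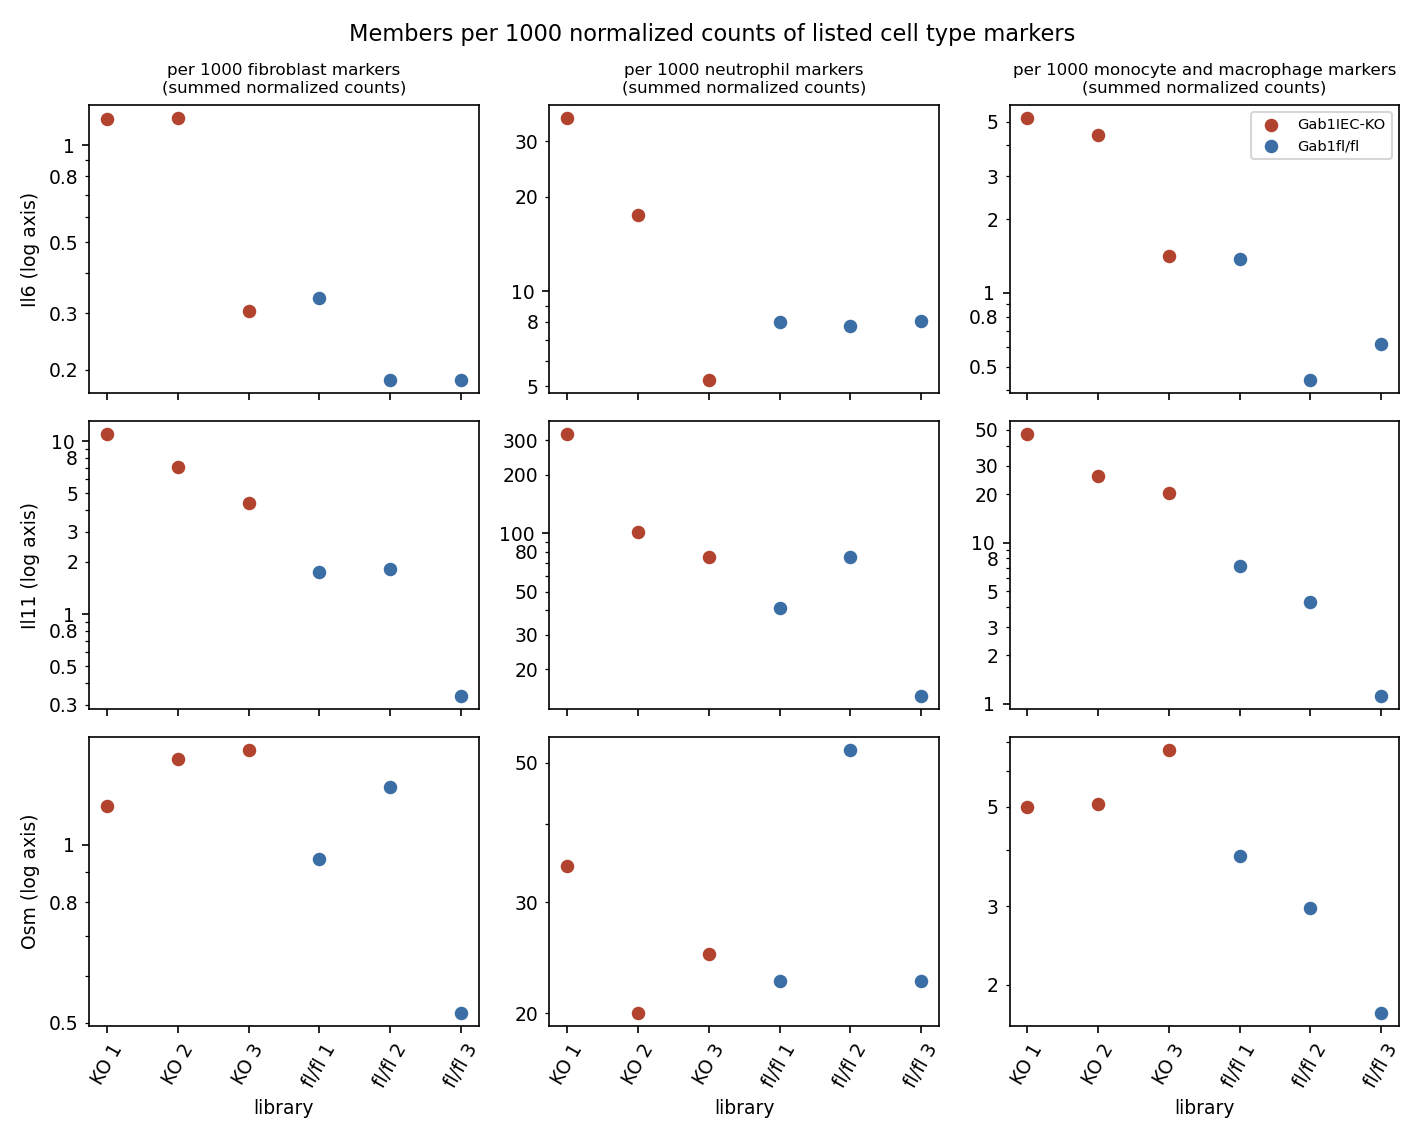
Il6, Il11 and Osm per 1000 summed normalized counts of the listed fibroblast, neutrophil, and monocyte and macrophage markers (log axes, each panel with its own range), with Gab1IEC-KO libraries on the left and Gab1fl/fl libraries on the right. Per fibroblast marker count the groups stay apart for Il11 alone, at 4.38 to 11.0 against 0.334 to 1.81, and per neutrophil marker count they overlap for all 3 genes.

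For each member the listed genes with the most similar values were found by Pearson's r of the log2 levels over the 6 libraries. These libraries share the group difference for which every gene was listed, so high values are common. The r with Il6 was over 0.9 for 5.27% of 1918 genes, with Il11 for 15.1% and with Osm for 22.2%. Il6 was most like Dll1, a Notch ligand (r = 0.995), Ctss, the protease cathepsin S (0.987), Fstl3, an activin-binding protein (0.981), Adora2b, an adenosine receptor (0.980), and the interferon-inducible Ifi204 (0.979). Il11 was most like Tmem255a (0.994), the chemokine Ccl3 (0.993), Togaram2 (0.991), Frzb, a secreted Wnt antagonist (0.988), and Chsy1, a chondroitin synthase (0.987). Osm was most like Rarres2, which encodes chemerin (0.993), Asb4 (0.993), the membrane-bound metalloproteinase Mmp14 (0.992), Nr2c2ap (0.991) and the IgG receptor Fcgr3 (0.988). Among themselves, Il11 had an r of 0.924 with Osm and 0.915 with Il6, and Il6 and Osm had the lowest, 0.764.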

How the data were processed

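Colon RNA-Seq libraries of Gab1IEC-KO and Gab1fl/fl mice, 3 each, were compared by their labels. The authors aligned reads with HISAT2 2.0.5 and counted them with featureCounts 1.5.0-p3, per the submitters' notes, which name the build hg18, although 2117 of 2195 gene coordinates equal those of mouse GRCm38 in GENCODE M21. The values that the authors deposited are a normalized signal, in which the counts of a library share one divisor (its size factor), by a tool not given in the sources used here. Their log2 fold changes and group means were deposited too and were not used. Of the deposited p-values and adjusted p-values, only the filter and the 16716 genes of the adjustment were taken. Reads were recovered from each library's step (100% whole within 0.01).
Here limma 3.58.1 (R 4.3.3, variance trend) was run on log2 of the value plus 1 over all 2195 genes, with Benjamini-Hochberg adjustment over 16716 genes, the unlisted ones taken as having larger p-values. Because the values were normalized, this was the main test, and edgeR 4.0.16 and DESeq2 1.42.0 ran on recovered reads with the deposited size factors as alternatives. All estimated their variances on genes listed for a difference. Ratios were tested by exact permutation on the same log2 scale. The limma step was tested on simulated data with 200 changed genes. Other settings were a pseudocount of 0.1, a mean of at least 10, the replicate number as a block, adjustment over the listed genes and leaving out each library. The members and gene lists were chosen with earlier results of these data known. The ligand list leaves out 1 further gene, which is not reported here. Named genes are the members, up to 5 listed genes per list by size of change, and the 5 most similar genes with a mean of at least 10, leaving out Gm and Rik genes. The markers named and Wnt5a were chosen after their values were seen. The genes named as not listed have no values and were chosen once their absence was known. The study gives 3 for each group of mice, the labels do not name the animals, and p-values measure only the spread between these libraries.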

Additional observations from a re-analysis of the deposited data

How the results depend on the processing

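The log2 fold changes of Il6, Il11 and Osm kept their direction under all 12 alternatives, most of which could not have reversed it. The groups did not overlap for any member, so leaving out 1 library could not change the direction. The filter on the mean, the replicate block and the adjustment over the listed genes leave the estimate itself unchanged. DESeq2 on the recovered reads brought Il6 (2.82) and Il11 (3.54) past an adjusted p under 0.05, and Osm passed it under none. With 1 library left out, the log2 fold change ran from 2.42 to 3.05 for Il6, from 3.03 to 4.33 for Il11 and from 1.34 to 1.92 for Osm, and limma called 0 to 2 genes at an adjusted p under 0.05. The count of genes called, 0 with limma, was 117 with DESeq2. At an unadjusted p under 0.05 the 1207 genes called by limma became 731 without Gab1IEC-KO replicate 1, 713 without Gab1IEC-KO replicate 3, 601 without Gab1fl/fl replicate 2 and 537 without Gab1fl/fl replicate 3, against 1405 without Gab1IEC-KO replicate 2 and 1524 without Gab1fl/fl replicate 1. The ratios of Il11 to Il6, Il11 to Osm and Il6 to Osm kept their direction under 8 alternatives each, and with 1 library left out their log2 differences ran from 0.52 to 1.66, from 1.69 to 2.51 and from 0.54 to 1.67. For Il11 to Osm the groups did not overlap, so leaving out 1 library could not reverse the direction. The cause of the shifts between settings was not tested.
The labels do not say whether samples with the same replicate number were paired. Their deviations correlated at 0.20, 0.30 and -0.14 across genes, which with so few libraries cannot decide it. With the replicate number as a block limma called 1 gene, with a standard error of 0.50 for Il6, 0.51 for Il11 and 0.54 for Osm. The exact test within pairs cannot go below 0.25. The block changed no call of a member. The 4 to 11 reads of Il6 in Gab1fl/fl libraries limit the precision of its fold change, beside the spread between libraries.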

Other observations

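The order of the 6 libraries, from the highest to the lowest value, was compared between the members and the other listed genes after the values were seen, as a description with no test. These orders are not fully resolved by the reads, because Poisson intervals of neighbouring libraries overlap. For Osm they were 44.0 to 76.0 and 48.6 to 81.2 in Gab1IEC-KO replicates 1 and 2, and 21.1 to 44.2 and 18.1 to 40.0 in Gab1fl/fl replicates 1 and 2. For Il11 they were 287 to 359 and 320 to 391 in Gab1IEC-KO replicates 2 and 3. The order of Il11 (Gab1IEC-KO replicates 1, 3 and 2, then Gab1fl/fl replicates 1, 2 and 3) was shared by 85 other listed genes, 3.87%. Among the listed genes of inflammation-associated fibroblasts, 4 of 8 had it, namely the stromelysin Mmp10, the prostaglandin synthase Ptgs2, the BMP antagonist Grem1 and the ligand Wnt5a. Of the other lists, the STAT3 targets held 1 such gene, Timp1. The order of Osm (Gab1IEC-KO replicates 3, 2 and 1, then Gab1fl/fl replicates 1, 2 and 3) was shared by 88 other listed genes, 4.01%. Among the listed stromal genes known to respond to oncostatin M, 3 of 4 had it, namely Ccl2, Icam1 and Vcam1. Of the other lists, the STAT3 targets (Il4ra), the acute phase genes (Serpina3n) and the neutrophil markers (Mmp9) held 1 each. The order of Il6 was shared by 14 other listed genes, 0.638%, of which the fibroblast marker Thy1 alone was in a list. These shares are over all listed genes, whereas all 3 orders place every Gab1IEC-KO library above every Gab1fl/fl library. Only 943 listed genes (43%) did so and could share them. Among these were 6 of the 8 listed genes of inflammation-associated fibroblasts and 3 of the 4 listed genes that respond to oncostatin M.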
